A study of Mus musculus with 27 samples.

Results

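Boundary regions are short stretches of the mouse genome in which DNA methylation is low at one end and high at the other. They were found in a table that gives a methylation level, as a fraction, for each CpG position and library, without the reads behind it. Of the positions checked in promoter windows, 99.98% were the C or the G of a CpG. Positions 1 bp apart can thus be the 2 strands of one CpG, and counts of positions below are not counts of CpGs. Within the regions, deviations of a library from the 27-library mean correlated with Pearson's r = 1.00 at positions 1 bp apart and 0.969 at 2 to 20 bp. The sources used here do not say whether the levels were smoothed. Single levels, widths and SDs below may therefore not be those of raw read fractions. Autosomal positions with a value in all 27 libraries were joined into runs with gaps of at most 200 bp, and 11263 runs held at least 20 positions. In 293 of them (2.60%) the mean level of the first 5 and of the last 5 positions, averaged over the 27 libraries, differed by 50 percentage points or more. The regions were thus selected on their mean end levels, so the size of the difference is given below as a description only. The other 10970 runs are the comparison.

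The libraries were made by reduced representation bisulfite sequencing (RRBS) of C2C12 cells, a mouse myoblast line. Per the labels, all cells were differentiated in medium with 2% horse serum and then given 50% horse serum for 2 h, a serum shock that synchronizes cellular clocks. DNA was taken at 12, 18, 24, 30, 36, 42, 48, 54 and 60 h after the shock, with 3 replicates at each of the 9 times, and the design holds no unshocked group. Whether the replicates were separate cultures is not given in the labels, so every p-value below rests on a spread between libraries that may be only technical. Only one cell line was used, the table gives no read counts, and the depth behind each level is therefore unknown.

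Most CpGs of mammalian genomes are methylated, whereas CpG islands, dense clusters of CpG that cover many gene starts, are usually not. The level changes at the edge of an island, in the flank called the island shore, and methylation there is known to differ between tissues. RRBS cuts DNA at CCGG sites, so it samples islands and their edges densely and the open genome thinly. The labels spell the enzyme as MpsI.

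In 12 regions the boundary lay inside the promoter window of the reference, 250 bases before to 50 after the gene start, with at least 6 measured positions on each side of it there. The 5 with the largest difference within the window are printed because they show which CpGs of a promoter lie on either side of the boundary. The sequences are from RefSeq (GRCm38.p6), 5′ to 3′ along the gene, and capitals mark CpGs whose mean level was 50% or more. A cg in lower case was measured below 50% or was not measured.
Gmpr, chr13:45507194-45507493, plus strand: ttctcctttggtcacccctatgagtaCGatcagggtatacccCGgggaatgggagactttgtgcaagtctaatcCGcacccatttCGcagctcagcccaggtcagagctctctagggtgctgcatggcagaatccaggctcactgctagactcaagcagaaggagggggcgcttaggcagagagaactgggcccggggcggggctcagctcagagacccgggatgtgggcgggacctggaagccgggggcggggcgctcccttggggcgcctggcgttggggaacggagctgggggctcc
E2f6, chr12:16810715-16811014, plus strand: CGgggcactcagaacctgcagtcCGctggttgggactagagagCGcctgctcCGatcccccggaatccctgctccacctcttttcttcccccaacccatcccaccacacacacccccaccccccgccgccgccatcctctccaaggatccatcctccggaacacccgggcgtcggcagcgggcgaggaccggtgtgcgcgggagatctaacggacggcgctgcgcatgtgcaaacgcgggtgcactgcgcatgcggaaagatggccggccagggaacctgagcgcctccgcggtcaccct
Tasor, chr14:27428584-27428883, plus strand: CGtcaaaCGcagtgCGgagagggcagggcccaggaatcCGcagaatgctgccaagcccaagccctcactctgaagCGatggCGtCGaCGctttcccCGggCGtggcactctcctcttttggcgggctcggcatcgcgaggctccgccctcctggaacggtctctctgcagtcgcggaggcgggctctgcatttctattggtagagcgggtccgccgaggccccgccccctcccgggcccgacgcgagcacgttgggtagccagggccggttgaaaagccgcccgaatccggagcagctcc
Emb, chr13:117220323-117220622, plus strand: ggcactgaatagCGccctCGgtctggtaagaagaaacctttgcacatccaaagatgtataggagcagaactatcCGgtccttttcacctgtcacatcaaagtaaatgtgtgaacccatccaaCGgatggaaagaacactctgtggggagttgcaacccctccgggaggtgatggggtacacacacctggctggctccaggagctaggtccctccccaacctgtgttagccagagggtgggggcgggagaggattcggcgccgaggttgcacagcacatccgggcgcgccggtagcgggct
Bsn, chr9:108190334-108190633, minus strand: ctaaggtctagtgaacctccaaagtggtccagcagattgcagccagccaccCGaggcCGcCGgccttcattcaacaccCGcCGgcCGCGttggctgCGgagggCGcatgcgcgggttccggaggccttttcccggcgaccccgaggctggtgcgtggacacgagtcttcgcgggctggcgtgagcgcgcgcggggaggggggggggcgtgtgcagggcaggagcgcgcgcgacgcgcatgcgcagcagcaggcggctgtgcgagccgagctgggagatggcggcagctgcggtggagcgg

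In each of these promoters the CpGs at 50% or more lay toward the 5′ end, and none next to the start was measured at that level. In Gmpr, which encodes a guanosine monophosphate reductase, the measured positions of the window averaged 74.6% on the high side and 18.2% on the low side, and the boundary lay at -128.5 bp (upstream of the start negative). E2f6, a repressor of the E2F family, had 61.3% and 6.68% on the high and low sides of a boundary at -157.5 bp. Only 4 of its 24 measured CpGs stood at 50% or more, all at the far end of the window. Tasor, a subunit of the HUSH silencing complex, had 70.2% on the high side and 20.2% on the low side. Emb, which encodes the cell surface protein embigin, had 65.1% and 18.2% on its high and low sides. Bsn, which encodes the presynaptic protein bassoon, had 63.5% and 31.1% on its high and low sides, and its mean profile crossed the midpoint 3 times.

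Promoter motifs were searched on both strands, and matches of different motifs may share bases. The Sp1-type GC box GGGCGG was found in 71.6% of the 148 promoters whose start lay inside a boundary region, in 77.1% of the 5719 with a start inside another run, and in 36.0% of all 31396 promoters. The E-box CACGTG was found in 9.46% of the regions' promoters, 11.4% of those in other runs and 7.14% of all. The cAMP response element TGACGTCA was found in 2.70% of the regions' promoters, 3.36% of those in other runs and 1.83% of all. The enzyme's own site CCGG was in 99.3% of the regions' promoters, 99.6% of those in other runs and 53.5% of all, and the median number of CpGs was 26, 26 and 7 in these 3 sets. These matches describe letters in the windows and do not identify bound sites.

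The regions were longer than other runs, and most of their positions lay on the low side of the boundary. The median of the run means was 21.7% in the regions and 3.299% in other runs. The rule asks for an end difference of 50 points or more, so a higher run mean follows in part from the selection. The regions had a median length of 943 bp against 555 bp in other runs, with 84 against 57 measured positions. The low ends had a median of 6.67% and the high ends of 75.8%, and 194 regions had a low end under 10% while 121 had a high end of 80% or more. In 25 regions the low end was itself at 25% or more. The low side held more than 50% of the positions in 259 regions (median 80.1%). It was also denser, at a median of 9.54 measured positions per 100 bp against 5.89 on the high side, and 224 regions (76.5%) were denser on the low side. The high side held a median of 14 positions, and 10 or fewer in 108 regions.

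The difference between the ends ranged from 50.0 to 97.2 points, with a median of 63.7, and 15 regions had 90 points or more. The region of Adcy9, which encodes a membrane adenylyl cyclase, had the largest. Its high end lay between 91.8% and 100% over the 27 libraries, with a median of 98.8%, and its low end between 0% and 2.88%, with a median of 0.196%. No library came near overlap. Trp53rkb, which encodes a homolog of a p53-regulating kinase, and Ddx17, an RNA helicase that acts as a coactivator in muscle differentiation, had differences of 95.9 points each. Fzd1, a Wnt receptor, had 94.0 points, Slc38a2, an amino acid transporter, 93.9 and Mpst, a sulfurtransferase, 93.7. Just inside the threshold lay the regions of Tafa2, Mllt1 and Thbd, at 50.00, 50.01 and 50.05 points, and just outside it runs at Zbtb32, Camk2n1 and Trim36, at 49.98, 49.90 and 49.88 points.

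The width of a boundary was taken from the mean profile as the distance over which the level passes from 25% to 75% of the way between the low and the high end, by linear interpolation. The boundary itself is the split of the profile into 2 levels with the least squared error. The profile crossed the midpoint once in 218 regions (74.4%) and 3 times in 60, and at most 9 times. The median width was 146 bp, with quartiles of 75.2 and 221 bp and a range of 27.7 to 851 bp. Widths of at most 100 bp were found in 109 regions (37.2%) and widths over 300 bp in 31. Aligned at the boundary, the median level was 26.9% in the last 50 bp of the low side and 54.0% in the first 50 bp of the high side. It was 4.08% at 550 to 600 bp into the low side and 86.4% at the same distance into the high side, where only 35 regions were measured. The boundary was placed from these same profiles, so a step at it follows in part from the alignment.

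**Figure D1:**
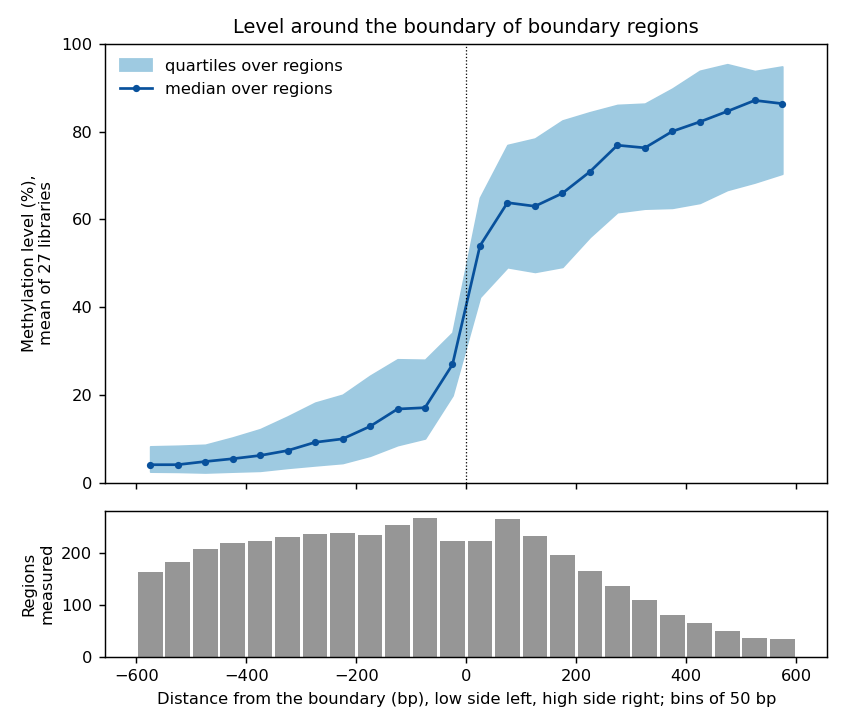
Methylation level (%, mean of 27 libraries) against distance from the boundary in 50 bp bins, as the median (line) and quartiles (band) over boundary regions, with the number of regions measured per bin below. The median is 54.0% in the first bin of the high side and 26.9% in the last bin of the low side, and fewer regions reach far into the high side. The boundary was placed from the same profiles, so the step at it follows in part from the alignment.

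Widths cannot be read more finely than the measured positions allow. The 2 positions flanking the boundary lay a median of 49 bp apart, over 100 bp in 69 regions, and in 74 regions the interpolated width was smaller than this gap. The measured positions that bracket the 25% and 75% points lay a median of 196 bp apart, and at most 100 bp apart in 63 regions. Levels at neighbouring positions also shared information: within the regions, deviations of a library from the 27-library mean correlated with Pearson's r = 0.969 over pairs 2 to 20 bp apart, 0.656 for pairs separated by 41 to 60 bp, 0.203 for 81 to 100 bp and 0.0546 for distances above that up to 150 bp. The cause of this was not tested, and widths under about 100 bp lie within that range. The median width in a single library's own profile was 111 bp.

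**Figure D2:**
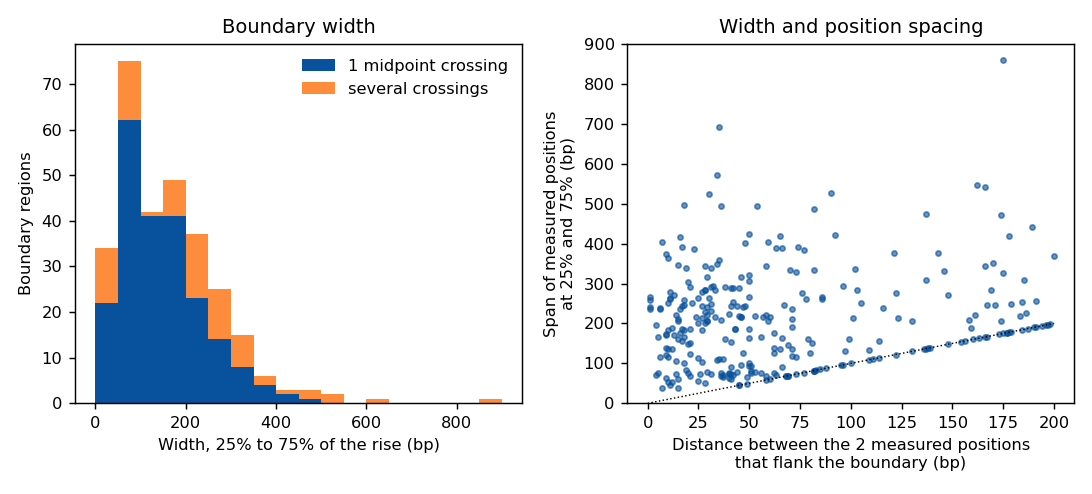
Left, number of boundary regions by width in bp (25% to 75% of the way, bins of 50 bp), split by the number of midpoint crossings; right, the span in bp of the measured positions that bracket the width against the gap in bp between the positions flanking the boundary, with a dotted line where the 2 are equal. Points on the line are regions whose 25% and 75% points both lie in one gap; the median span is 196 bp and the median gap 49 bp.

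The narrowest single-crossing boundary was at Agtrap, which encodes a protein that binds the angiotensin II receptor, with 27.7 bp inside one gap of 77 bp. Those at Taok3, a kinase, and Sco2, a copper chaperone of cytochrome c oxidase, were 35.1 and 35.8 bp wide, with bracketing positions 82 and 78 bp apart. Grk5, a receptor kinase, had 37.9 bp and a bracket of 79 bp, 2700062C07Rik 39.0 bp and 69 bp, and Slc25a31, an ADP/ATP carrier of the germline, 38.5 bp and 46 bp. The widest among single-crossing regions were at Fzd1 (455 bp), Zbtb7a, a transcriptional repressor (442 bp), Hhex, a homeobox gene (441 bp), and Cul7, a ubiquitin ligase scaffold (387 bp). The change at these spanned several measured positions: the flanking positions at Fzd1 were 54 bp apart and at Hhex 36 bp.

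Gene starts were taken from the RefSeq promoter windows, which give the strand and do not cover every gene; regions without a listed start within 5 kb are named by the nearest gene end of the gene table. The low end was the nearer one to the nearest listed start in 202 of 283 regions with a strand (71.4%, exact 95% Clopper-Pearson interval 65.7 to 76.6, counting error only). In other runs the end with the lower level was nearer in 6061 of 10659 (56.9%), and in those with a difference of 20 to 50 points in 61.8%. Where a listed start lay within 5 kb the low end was nearer in 174 of 223 regions (78.0%) against 58.4% of other runs. The ends of other runs differed by a median of only 3.08 points. In those with a difference of 20 to 50 points and a listed start within 5 kb the share was 65.8%. The 283 also take in 60 regions with no listed start within 5 kb, and in 56 of these the gene with the nearest end has no listed start. Their share of 46.7%, against 49.2% in other runs, is therefore taken to starts of other genes in most cases and is no measure of distance from a start. In 212 regions, chosen after seeing the data, every gene over the midpoint and the gene of the nearest end had a listed start. Among these the low end was nearer in 163 (76.9%) against 58.2% of other runs chosen the same way. It was 65.4% of such other runs with a difference of 20 to 50 points. Regions are not replicates, so no p is given for these shares. The interval treats regions as independent, which neighbouring ones may not be, and it is not read as a test against other runs.

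Of the 223 boundaries with a start within 5 kb, 136 lay downstream of it, at a median of 696 bp, and 87 upstream, at a median of 428 bp. The high side pointed away from the start in most: into the gene in 122 of the 136 downstream boundaries, and upstream in 80 of the 87 upstream ones. Within 250 bp of the start lay 38 boundaries, from there up to 1 kb 132, and beyond that 53. The start itself lay inside the region in 148, on the low side in 139 of them. Most positions lay on the low side, so the counts of 122, 80 and 139 follow in part from the layout of the regions. They were not set against other runs. The low end was the nearer one to the start in 111 of the 148, against 3257 of 5719 other runs with a start inside. Among such other runs with a difference of 20 to 50 points it was nearer in 337 of 519. A gene of the table covered the midpoint of 248 regions (84.6%), against 89.2% of other runs.

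**Figure D3:**
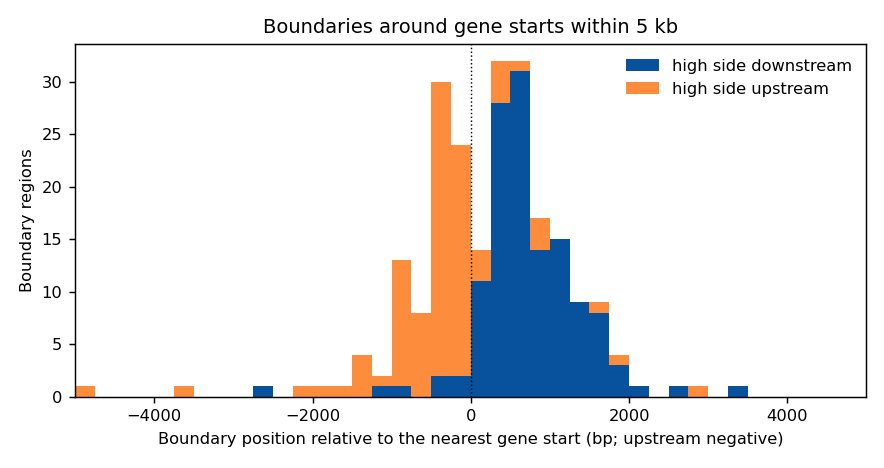
Number of boundary regions by the position of the boundary relative to the nearest gene start, in bins of 250 bp with upstream negative, split by whether the high side lies downstream or upstream. Of 136 boundaries downstream of a start 122 have the high side downstream, and of 87 upstream ones 80 have it upstream. Most positions lie on the low side, so these counts follow in part from the layout of the regions.

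In 9 regions the start lay on the high side. They belong to Csrp1, Slc25a31, Npy5r, Smarca5, Gm31954, Sfmbt1, Smc1b, Dll1 and Dazl. Dazl, an RNA-binding protein of germ cells, had 95.5% at the high end and 23.2% at the low end, with the boundary 506.5 bp inside the gene. Smc1b, the meiotic cohesin subunit, had 82.4% and 19.08% at the high and low ends, and Slc25a31 had 91.4% and 21.8%. Csrp1, a LIM protein of muscle and other tissues, had 71.9% and 16.2%. Smarca5, a chromatin remodelling ATPase, and Sfmbt1, a Polycomb-group protein, had lower high ends, of 54.3% and 67.3%, with low ends of 3.41% and 0.680%.

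At Dll1, a Notch ligand, 2 regions 263 bp apart faced each other. The one nearer the start had 94.4% at its high end and 4.16% at its low end, with the boundary 285.5 bp inside the gene. The other had 54.9% and 3.22%, with the boundary 739.5 bp inside the gene, so that the low stretch lay between them. Another facing pair, 375 bp apart, lay at Hoxa4, with high and low ends of 87.6% and 26.1% in one and 67.3% and 11.9% in the other. The other 3 pairs lay within 20 kb of each other, Foxd2 with Foxe3, 1700067K01Rik with Misp3, and Ttll1 with Bik.

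Lists of genes were set beside the regions by nearest start or gene end. None of the 11 runs at myogenic regulators, 6 at muscle structure genes, 22 at core clock genes, 16 at imprinted genes, 3 at fibroblast genes and 3 at neural genes was a boundary region, against 2.60% of all runs. Germline genes had 1 of 8 (Dazl). Hox genes had 3 of 38, the pair at Hoxa4 and Hoxa13, a limb and hindgut homeobox gene with 93.9% and 7.85% at its high and low ends. Families of developmental transcription factors had 5 of 134. These were Irx3 (95.6% and 4.12%), Tbx2 (95.3% and 7.44%), Foxd2 (95.1% and 9.87%), Sox7 (90.3% and 14.99%) and Foxe3 (63.7% and 9.94%), each given as high and low end. With so few runs per list, nothing particular to a list can be read from these counts.

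Further regions are given as examples chosen after their values were seen; related genes outside the regions were not counted, and no theme is read from them. The Wnt receptor genes Fzd5 and Fzd9 had 80.5% and 87.0% at the high end and 4.05% and 1.27% at the low end. At these and at Fzd1 the boundary lay downstream of the start, at 1346 bp (Fzd1), 1560.5 bp (Fzd5) and 305.5 bp (Fzd9), with the high side further into the gene. The natriuretic peptide receptors Npr1 and Npr2 had high ends of 91.3% and 89.9% and low ends of 20.7% and 3.33%. The doublesex-related genes Dmrt2 and Dmrt3 had 89.8% and 67.7% at the high end and 5.31% and 6.89% at the low end. Of chromatin proteins, Uhrf2, a reader of modified cytosine, had 91.3% and 2.80%, the H3K36 methyltransferase Nsd1 80.02% and 3.32%, and the Polycomb subunits Phc2 and Ring1 had high ends of 70.03% and 56.6% and low ends of 7.25% and 3.15%. Of muscle-related genes outside the lists, Ckb, the brain-type creatine kinase, had 75.2% and 19.2%, and Twist2, a repressor of myogenic factors, had 85.5% and 3.07%.

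The end levels of the regions were similar at the 9 times. The median difference between the ends over all 293 regions was 65.2 ± 0.636 points at 12 h (SD, n = 3), 66.2 ± 0.951 at 30 h and 65.4 ± 0.797 at 60 h, and it lay between 64.5 and 66.2 at every time. Over single libraries it lay between 64.1 and 67.2 points. The threshold of 50 points was met at all 9 times by 184 regions (62.8%) and in all 27 libraries by 92. Among those with a mean difference of 70 points or more these were 94 of 94 and 75 of 94. The regions were selected on the mean of this difference over the same libraries. These counts and the next ones thus follow in part from the selection. The high end was above the low end in all libraries in 284 regions, and below it in 9 of 7911 pairs of region and library. The lowest of these was -16.7 points, at B3galt6, a galactosyltransferase gene.

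**Figure D4:**
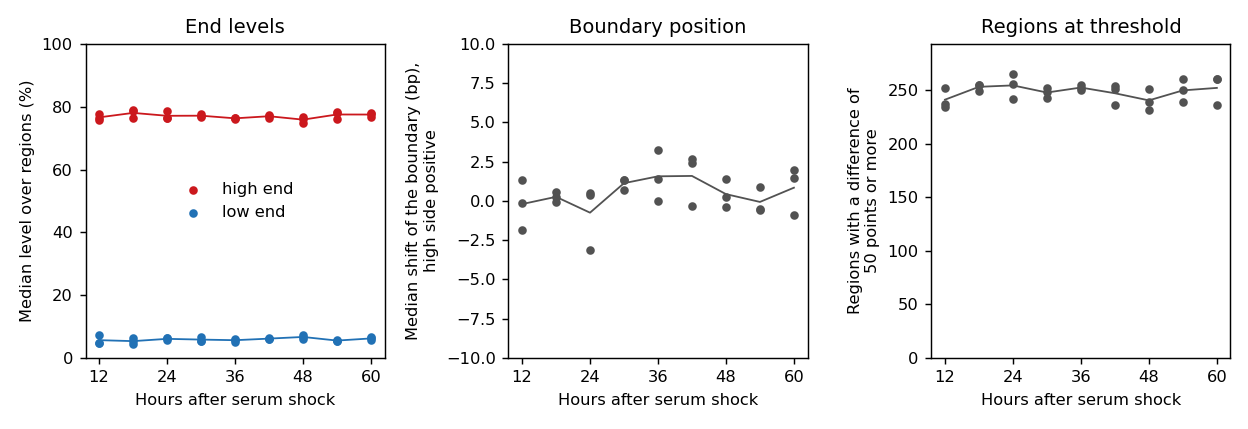
Each point is a library and each line joins the mean of 3 replicates over hours after the serum shock. Left, median high and low end levels (%) over the 293 regions; middle, median shift of the boundary in bp from its mean position, toward the high side positive; right, number of regions with a difference of 50 points or more. High ends lie between 74.9% and 78.9%, low ends between 4.41% and 7.27%, shifts between -3.16 and 3.27 bp, and counts between 231 and 265. Shifts use the crossing nearest to the boundary of the mean profile and may be understated. The counts use the difference on whose mean over the 27 libraries the regions were selected.

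The position of a boundary in each library was the crossing of the midpoint between that library's own end levels. Where a library's profile crossed several times, the crossing nearest to the boundary of the mean profile was taken. This choice keeps positions close to the mean boundary, so the SDs and shifts may be understated. A library whose high end was not above its low end gave no position. Its SD over the libraries had a median of 36.2 bp over the regions, with quartiles of 19.05 and 59.2 bp, and was at most 20 bp in 80 regions and over 100 bp in 17. The SD within times had a median of 35.8 bp, which would give time means of 3 replicates an SD of 20.7 bp, and the SD of the time means had a median of 21.5 bp. Boundary positions thus differed between times by about as much as replicates of one time alone would give. The smallest SDs among single-crossing regions were at Slc25a31 (4.33 bp), Mterf4, a mitochondrial protein (4.50 bp), and Helb, a DNA helicase (4.66 bp). The positions flanking these boundaries lay 45, 138 and 73 bp apart, and a crossing is only interpolated between measured positions, so these SDs are not read as a fixed boundary. The largest among single-crossing regions were at Hhex (252 bp), Ntn4, a netrin (132 bp), and Kcnf1, a potassium channel subunit (114 bp), whose difference ran from -7.41 to 81.1 points over libraries.

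The median SD of a single position over the libraries was higher in the regions than in other runs at some levels and lower at others. It was 8.49 points in the regions and 9.20 points in other runs at levels of 40 to 60%. At levels under 10% it was 2.75 points in the regions and 2.27 points in other runs, and at 90% and above it was 3.67 and 3.08 points in regions and other runs.

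Differences between times were tested with limma over all 11263 runs, with Benjamini-Hochberg adjustment over all of them. For any difference of the end difference between times, 0.0% of runs and none of the regions passed an adjusted p of 0.05; 15 regions (5.12%) had an unadjusted p under 0.05, against 4.23% of all runs. For a 24 h rhythm the count was again 0 (0.0% of runs), with 20 regions (6.83%) at the unadjusted threshold against 4.16%. For a linear trend none passed (0.0% of runs), with 17 (5.80%) against 5.04%, and for the mean level of the whole run none passed (0.0% of runs), with 12 (4.10%) against 4.26%. The smallest adjusted p among the regions was 0.947, 0.958, 0.937 and 0.984 in these 4 limma tests. The fitted trend had a median of -0.490 points per 48 h over the regions, positive in 136, with a median SE of 5.23, and -0.0513 over all runs. The fitted rhythm had a median amplitude of 2.84 points in the regions, with a median SE of 2.40, and 2.15 points in all runs.

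The regions with the smallest unadjusted p illustrate the spread. At Adal, an adenosine deaminase-like gene, the end difference at 48 h was 43.1, 81.2 and 42.8 points in replicates 1 to 3, while the other 24 libraries lay between 77.7 and 99.2 points. The high end there was 96.1, 88.4 and 91.4% and the low end 52.9, 7.22 and 48.6%, so the low end of 2 replicates stood apart and the third did not. Its p was 0.00219 unadjusted and 0.947 adjusted in limma, and the adjusted p lay between 0.618 and 0.991 under every alternative but one. In that one, without replicate 2 of 48 h, Adal passed, with an adjusted p of 0.00943 (limma), the only call among the regions when any one library was left out; with that library present the difference between times was not called.

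Mkrn1, a ubiquitin ligase, had end differences of 69.0, 49.3 and 47.5 points at 12 h and 70.8, 75.8 and 89.3 points at 18 h (limma adjusted p = 0.975 over the 9 times). Its low end was at 49.7% in replicate 1 of 42 h and at most 22.8% in the other libraries.

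At Emb the low end was at 31.9, 12.1 and 0% at 12 h and 0, 10.8 and 18.8% at 24 h, and at 44.0, 36.9 and 16.3% at 48 h and 17.0, 39.7 and 23.2% at 60 h. Values of early and late times overlapped, and the fitted trend of the end difference was -24.2 points per 48 h (SE 6.81, limma adjusted p = 0.937). Its high end stayed between 82.9% and 96.2%. Egr3, an immediate early transcription factor, had a trend of 15.3 points (SE 4.18, limma adjusted p = 0.937), with end differences of 80.2, 75.03 and 70.9 points at 12 h and 92.5, 91.3 and 77.4 at 60 h. Hook1, a cargo adaptor of the dynein motor, had a trend of 16.3 points (SE 5.49, limma adjusted p = 0.937), with 46.0, 56.6 and 51.5 points at 12 h and 61.6, 61.3 and 63.6 at 60 h. Only at Hook1 did the 12 h and 60 h replicates not overlap among these 3, and its 36 h replicates were higher still, at 88.5, 73.6 and 70.1 points.

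The smallest p for a 24 h rhythm belonged to a region on chromosome 18 inside Zbtb7c, nearest to Gm33703, with an amplitude of 3.01 points (SE 0.773, limma adjusted p = 0.958). Csrp1 had 4.36 points (SE 1.19) and Yipf2, a Golgi membrane protein, 7.84 points (SE 2.28), both at an adjusted limma p of 0.958. At Csrp1 the end difference was 46.5, 53.8 and 52.7 points at 12 h and 60.2, 56.7 and 56.2 at 24 h. It was 53.9, 59.9 and 53.6 at 36 h and 57.5, 56.3 and 54.8 at 48 h. The 24 h replicates lay above those of 12 h but overlapped those of 36 h and 48 h. At 18 h it was 50.3, 53.5 and 47.3 points and at 30 h 61.2, 61.8 and 57.8, without overlap. At 42 h it was 57.0, 44.4 and 54.0 points and at 54 h 62.2, 55.8 and 59.1, with overlap. For the run mean, Rnf113a2, a ring finger gene, had 46.9, 50.8 and 54.4% at 12 h and 63.1, 63.6 and 62.1% at 18 h (limma adjusted p = 0.984). These groups did not overlap, but they were 2 of 9 times and the test over all runs did not call the difference. Hpdl, a mitochondrial protein, had 30.5, 31.0 and 30.1% at 12 h and 34.2, 35.9 and 36.3% at 18 h, and Nol4l had 8.17, 8.84 and 7.002% at 12 h and 12.4, 9.25 and 13.5% at 48 h, both at an adjusted limma p of 0.984.

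**Figure D5:**
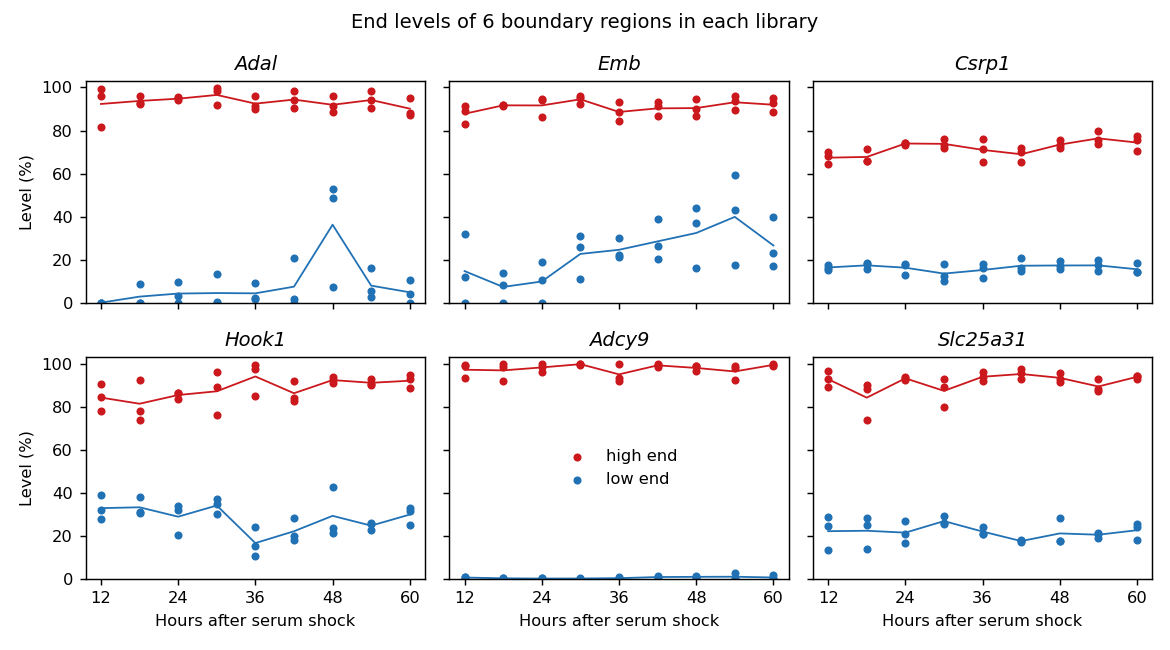
High end and low end levels (%) of 6 boundary regions in every library over hours after the serum shock, with lines through the means of 3 replicates. The low end of Adal stands at 52.9% and 48.6% in 2 of the 48 h replicates and at 7.22% in the other, the low end of Emb spreads widely at late times, and the ends of Adcy9 and Slc25a31 stay apart in all 27 libraries.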

How the data were processed

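The authors deposited 1 table, per the file headers with a row per position and a column per library, that gives methylation as a fraction between 0 and 1; it holds no coverage. Per the submitters' processing notes, Trim Galore 0.4.0, cutadapt 1.9.1, Bismark 0.14.4, Bowtie2 and mm10 were used. Of 937644 positions, the 853883 autosomal ones with values in all 27 libraries were used; positions count from 1. Library means were 10.9 to 12.1%. Missing positions numbered 1577 to 21290 per library.

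Levels were multiplied to percent. End differences and run means were tested with limma 3.58.1 in R 4.3.3 (time as a factor, a 24 h cosine and sine, or linear time), after a check on simulated data. Starts, strands and sequences came from RefSeq tables of GRCm38.p6; chromosome 18 carried no strand here. Widths, positions and directions were described without a test. Alternatives changed thresholds, gaps, end positions, scale, prior, covariate, block and libraries.

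The members, lists and the rule for named regions were chosen with earlier results of these data known. Named are the 6 largest differences, 6 narrowest and 4 widest boundaries, 3 steadiest and 3 most variable positions, 3 smallest p per test, 3 just inside and outside the threshold, and list members; others named were chosen after their values were seen.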

Additional observations from a re-analysis of the deposited data

How the results depend on the processing

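The number of boundary regions depended on the rule: 480 at a threshold of 0.40, 178 at 0.60, and 161 with gaps of at most 100 bp, against 293. There were 420 with gaps of 400 bp, 196 with 10 end positions in place of 5, and 261 with positions 1 bp apart averaged. The median width was 109 bp at 0.40, 163.061 bp at 0.60, 121 bp with gaps of 100 bp, 163.459 bp with gaps of 400 bp and 127 bp with at least 10 positions. It was 265 bp between 10% and 90% of the way and 111 bp in single libraries' profiles, against 146 bp. The share with the low end nearer to the start was, against 71.4%, 78.0% with a listed start within 5 kb and 76.9% where the region's own genes had listed starts. It turned to 46.7% with no listed start within 5 kb, a group in which 56 of 60 regions lie nearest to a gene that the start table lacks; these splits were chosen after seeing the data. The median SD of boundary position was 32.0 bp at a fixed level of 0.50. With gaps of 400 bp the 2 Hoxa4 regions formed one run, together with further positions before the first, with an end difference of -27.7 points in the direction of the second. The run mean gave 1 call, outside the regions, with a prior that follows the level. The cause of the other changes was not tested.

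Leaving out each library gave 290 to 299 regions, low-end shares of 70.4 to 71.9%, widths of 140 to 149 bp, position SDs of 35.0 to 36.8 bp, and limma calls of 0 to 3 (any time), 0 to 0 (rhythm), 0 to 0 (trend) and 0 to 2 (run mean). Leaving out 12 of the libraries one at a time gave a call for any time, and 7 for the run mean; all were outside the regions except Adal without replicate 2 of 48 h (adjusted p 0.00943). Whether the replicate numbers pair samples was not settled. Same-numbered libraries had a mean correlation of deviations of 0.00235, against -0.00116 for other numbers, and 14 of 27 libraries correlated best with their own number. With the replicate number as a block, limma called 0 runs in each of the 4 tests. Depth is not given, so a coverage minimum could not be tried, and the precision of single levels is unknown.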

Other observations

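On the X chromosome, outside the rule, 2 of 280 runs of at least 20 positions (0.714%) had an end difference of 50 points or more. The median difference there was 10.3 points and the highest 67.4. By autosome, the share of runs that were boundary regions lay between 1.49% on chromosome 6 and 4.31% on chromosome 19, with 30 regions on chromosome 4.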
